A study of Mus musculus with 4 samples.

Results

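The genes described are 3 ligands of the epidermal growth factor (EGF) receptor, Hbegf, Areg and Ereg, the receptor itself, Egfr, and the urokinase pair, Plaur and Plau. They were chosen by gene symbol, and every probe set that the platform annotation ties to 1 of these symbols was used. Of the 6 genes, 5 had such a probe set, with 8 probe sets in all, out of 8251 genes and 12422 probe sets on the array that are no control. No probe set in the annotation carried the symbol Areg, so its transcript was not analysed here.

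The samples were 4 RNA pools from whole lungs of mice of the inbred strain C57BL/6J, each read on 1 oligonucleotide array. One pool came from unexposed mice, and 3 came from mice exposed to aerosolised hexamethylene diisocyanate (HDI) at 10 mg per cubic metre and sampled 6, 18 or 90 h later. HDI is a reactive building block of polyurethane coatings. No genetic alteration is named for any group, and neither the number of mice in a pool, their age nor a sham exposure is stated in the sources. With 1 array per group there was no spread between replicates, no test could be made, and each value describes these arrays.

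The EGF receptor is a tyrosine kinase of epithelial and other cells that, once bound by ligand, drives the RAS and ERK cascade, proliferation and migration. Its ligands are made as membrane-anchored precursors and released by metalloproteases such as ADAM17 and ADAM10. In airway and alveolar epithelium this system is best known for repair after injury. Urokinase, the product of Plau, is a serine protease that turns plasminogen into plasmin, and its receptor, the product of Plaur, is held on the cell surface by a lipid anchor, where it concentrates that activity and associates with integrins. Both systems are known targets of growth factor and stress signalling through AP-1 transcription factors.

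The Plaur promoter is printed because Plaur had the largest fold, a lower limit, among the members. RefSeq promoter windows (build GRCm38.p6, 250 bases before to 50 after the start) were found for 3 of the 6 genes, Areg, Egfr and Plaur. The table places the Plaur start at 24462483, inside the full RefSeq span of the gene, which begins at 24460937, and does not say which of its transcripts starts there. The 250 bases before that start, chr7:24462233-24462482 on the plus strand, are given 5′ to 3′ with the AP-1 letters TGANTCA in capitals.
Plaur: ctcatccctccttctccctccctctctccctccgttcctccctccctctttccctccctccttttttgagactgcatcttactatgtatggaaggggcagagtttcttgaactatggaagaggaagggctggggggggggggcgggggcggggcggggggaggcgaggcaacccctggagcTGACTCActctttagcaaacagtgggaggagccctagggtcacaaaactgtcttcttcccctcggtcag

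The Plaur window held 1 AP-1 match, TGACTCA, at -69 to -63 from the start, and the same letters read as TGAGTCA on the other strand. It also held the letters GCGNGGGCG of the EGR factors at -109 to -101, and TGANNNNGC of the antioxidant response element at -184 to -176 and, on the other strand, at -71 to -63, the last overlapping the AP-1 match. The cyclic AMP response element TGACGTCA was not among its letters. Over all 32851 promoter windows of this length, searched on both strands, 7.81% held the AP-1 letters, 5.55% the EGR letters, 41.3% the antioxidant letters and 1.79% the cyclic AMP letters. None of these motifs was matched in the Egfr window, while the Areg window held the cyclic AMP letters at -61 to -54 and the antioxidant letters on the other strand at -148 to -140. A match describes letters only.

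Lung markers were high in every pool: Sftpc, the surfactant protein of alveolar type II cells, read 9136 to 9874 units, and Scgb1a1, the secretoglobin of club cells, 8006 to 10630 units. All intensities below are deposited units after scaling the arrays to a common trimmed mean. Array medians before scaling were 97.7 to 108 units. Scaled values up to 77.7 units, the 40th percentile of all values, were treated as too dim to rank and are called at the floor. Where 1 of the 2 arrays set side by side was at the floor, the fold is a lower limit, given with the words at least, and where both were, no comparison was made. Among several probe sets of a gene, the brightest on average stands for it.

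Across the genes described, 3 courses were seen: Hbegf was high at 6 and 18 h alike, Plaur was highest at 6 h and Plau at 18 h. All 3 of these genes were lower at 90 h than at 18 h. Egfr went the other way by its brightest probe set, and Ereg was too dim to compare.

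**Figure D1:**
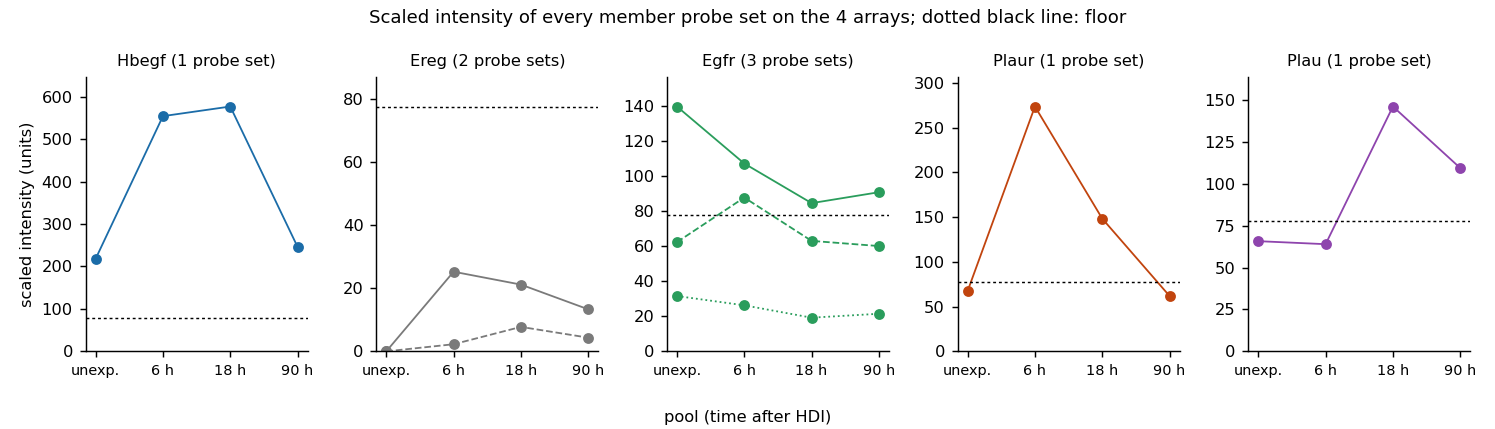
Scaled intensity (y axis, units, its own range per panel) of every probe set of the 5 measured genes in the unexposed, 6, 18 and 90 h pools (x axis, as categories). Each point is 1 array, lines join points of 1 probe set, the brightest solid, and the dotted black line is the floor of 77.7 units. Hbegf lies above the floor in all 4 pools, Plaur at 6 and 18 h, Plau at 18 and 90 h, and both Ereg probe sets in none.

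Hbegf encodes heparin-binding EGF-like growth factor, a ligand of Egfr and of the related receptor Erbb4. The gene lies on chromosome 18 from 36504927 to 36515805 (GRCm38.p6) and had 1 probe set. Its scaled intensity was 218 units in unexposed lungs, 554 at 6 h, 577 at 18 h and 246 at 90 h. The 6 h and 18 h pools were thus the high ones, and the unexposed and 90 h pools lay close together. Hbegf was 2.54-fold higher at 6 h than in unexposed lungs and 2.65-fold higher at 18 h, log2 differences of 1.35 and 1.40. Among all compared genes, ordered from the highest difference, this placed it 67th of 6044 at 6 h and 35th of 6040 at 18 h. From 6 h to 18 h its log2 difference was 0.06. At 90 h it was 2.34-fold lower than at 18 h and 1.13-fold above the unexposed pool. It was the only member whose brightest probe set was above the floor in all 4 pools with no suffix for shared probes, so all its folds were measured rather than bounds.

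Ereg encodes epiregulin, a ligand of Egfr and Erbb4, and had 2 probe sets. The brighter was listed at 0 in the unexposed pool and read 25.3, 21.2 and 13.3 units at 6, 18 and 90 h. The other, whose suffix marks a family of similar sequences, was also listed at 0 in the unexposed pool and read 2.26, 7.77 and 4.35 units. Every one of these values was far below the floor, so no fold is given and nothing can be said of its direction. Ereg and Areg are neighbours on chromosome 5, at 91074617 to 91093649 and 91139599 to 91148432.

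Egfr, on chromosome 11 from 16752203 to 16913907, had 3 probe sets that did not all move together. The brightest read 139.6, 107.1, 84.5 and 90.7 units in the unexposed, 6, 18 and 90 h pools, highest in unexposed lungs. By it Egfr was 1.30-fold, 1.65-fold and 1.54-fold lower than in unexposed lungs at 6, 18 and 90 h, with log2 differences of -0.38, -0.72 and -0.62. At 18 h 3.16% of compared genes lay lower. This probe set carries a suffix that marks probes shared within a group of sequences. A dimmer one, designed from the same source sequence, was at the floor throughout at 31.6, 26.3, 19.2 and 21.4 units. Its values were too dim to rank and give no direction. The third probe set, from another source sequence, read 62.3 units in unexposed lungs, 87.7 at 6 h, 63.0 at 18 h and 60.04 at 90 h, above the floor at 6 h alone. By that probe set Egfr was at least 1.13-fold higher at 6 h, so the direction at 6 h depended on the probe set. With all 3 averaged, the log2 differences were -0.07, -0.24 and -0.21.

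Plaur, the urokinase receptor gene, lies on chromosome 7 from 24460937 to 24475970 and had 1 probe set. It read 67.4 units in unexposed lungs, 274 at 6 h, 148 at 18 h and 61.8 at 90 h. The unexposed and 90 h pools were both at the floor, and the 6 h pool stood highest. Plaur was at least 3.52-fold higher at 6 h and at least 1.91-fold higher at 18 h, and both limits depend on the floor. Between 6 and 18 h, both measured, it was 1.85-fold lower at the later time (log2 difference -0.88), and from 18 to 90 h at least 1.91-fold lower. If the floor was raised to the 60th percentile, the 6 h log2 difference was 0.99, just under 2-fold, since a higher floor shortens a bound.

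Plau, the urokinase gene, on chromosome 14 from 20836662 to 20843388, followed later than its receptor. Its probe set read 65.7 units in unexposed lungs, 63.9 at 6 h, 146 at 18 h and 109 at 90 h, with the first pools at the floor and the later ones above it. Plau was at least 1.88-fold higher at 18 h than in unexposed lungs and also at least 1.88-fold higher than at 6 h. At 90 h it was at least 1.41-fold above unexposed lungs and 1.34-fold below 18 h (log2 difference -0.42). Thus the 6 h pool held receptor signal above the floor with the protease gene at the floor, and the 90 h pool the reverse.

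At 6 h, 2 of the 3 members compared were at least 2-fold higher than in unexposed lungs, Hbegf and Plaur, where 2.17% of 6044 genes were, and none was at least 2-fold lower, where 1.51% were. At 18 h, 1 of 4 was higher, Hbegf, against 1.59% of 6040 genes, and none lower, against 0.944%. At 90 h none of 3 passed 2-fold in either direction, against 0.726% higher and 0.924% lower of 6062 genes. From 6 to 18 h none of 4 passed 2-fold, against 1.18% higher and 1.17% lower of 5994 genes. From 18 to 90 h, 1 of 4 was lower, Hbegf, against 0.954% of 5977 genes, and none higher, against 0.903%. The members' median log2 differences from unexposed lungs were 1.35, 0.92 and 0.17 at 6, 18 and 90 h, the second resting on the bounds of Plaur and Plau, and those of all compared genes -0.04, -0.01 and 0.03. The members were chosen with results of these arrays known and some passed the floor only in the pools where they were high, so these counts are descriptions. All 3 comparisons with unexposed lungs share 1 array.

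**Figure D2:**
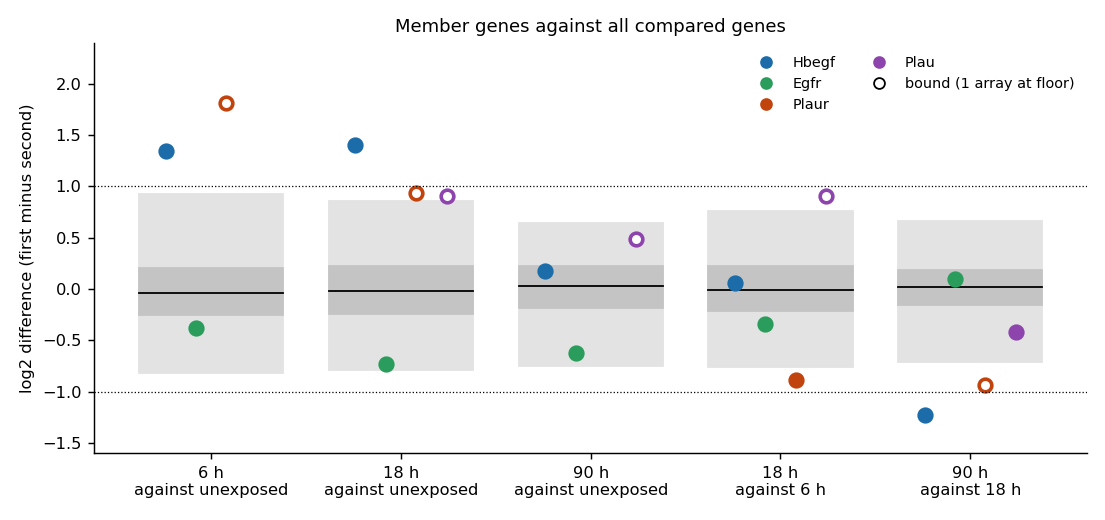
Log2 difference (y axis) of Hbegf, Egfr, Plaur and Plau in the 5 comparisons (x axis), 1 point per gene, filled where measured on both arrays and open where a bound. The light band spans the central 95% of all compared genes, the dark band the central 50%, the black line their median, and dotted lines mark 2-fold. Hbegf and Plaur lie above the light band at 6 h and Hbegf, Plaur and Plau at 18 h, while Egfr stays within it.

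The other EGF family ligands gave little to compare. Of 8 listed, 4 had a probe set, and Egf, Tgfa and Btc, which encode EGF, transforming growth factor alpha and betacellulin, were at the floor in all 4 pools. Tgfa read 53.4, 67.5, 52.8 and 42.8 units in the unexposed, 6, 18 and 90 h pools. Nrg3, a neuregulin that binds Erbb4, was the exception at 166.9, 149.9, 118.9 and 127.3 units, with log2 differences of -0.15, -0.49 and -0.39. Of the receptors, Erbb4 read 704, 589, 456 and 721 units, lowest at 18 h with a log2 difference of -0.63. Erbb3, a receptor with little kinase activity of its own, read 172.6, 165.6, 178.4 and 239 units, highest at 90 h, 1.38-fold above unexposed lungs. No gene of these lists passed 2-fold, which at so few genes is near the share over all genes.

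Of 11 genes for ligand release, 9 had a probe set and 7 were compared, none past 2-fold at any time, a count near the share over all genes (2.17%, 1.59% and 0.726% higher at 6, 18 and 90 h, and 1.51%, 0.944% and 0.924% lower). Their median log2 differences were -0.04, -0.19 and 0.01. Adam17, the main protease for Hbegf, Areg and Ereg precursors, read 141 units in unexposed lungs, 138.7 at 6 h, 116 at 18 h and 139.1 at 90 h. Adam10 differed by -0.15, -0.19 and 0.11 on the log2 scale by its brightest probe set, while its other, at the floor in unexposed lungs, gave lower limits of 0.56, 0.36 and 0.79. The log2 differences of Adam15 were -0.11, -0.50 and -0.35. Timp3, a secreted inhibitor of ADAM17, was 1.63-fold higher at 6 h, from 1218 to 1985 units. Adam19 was 1.80-fold higher at 90 h. Cd9, a tetraspanin that associates with the Hbegf precursor, read 1029 to 1187 units in all 4 pools.

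Some feedback inhibitors of the receptor were among the list genes furthest above unexposed lungs. Of 15 listed, 9 had a probe set and 7 were compared, with medians of 0.78, 0.27 and 0.25 at 6, 18 and 90 h. Past 2-fold were 2 of the 7 at 6 h, 1 at 18 h and none at 90 h, each of them higher, beside 2.17%, 1.59% and 0.726% of all compared genes. Errfi1 encodes MIG6, which binds EGF receptor family kinases and blocks them. Errfi1 read 496 units in unexposed lungs, 1859 at 6 h, 942 at 18 h and 591 at 90 h. It was 3.75-fold higher at 6 h and 1.90-fold at 18 h, and its other probe set gave log2 differences of 2.17 and 1.08. Socs3, better known for damping cytokine receptors of the gp130 type, read 168.7, 474, 611 and 220.5 units, 2.81-fold higher at 6 h and 3.62-fold at 18 h. The ERK phosphatase gene Dusp6 was 1.74-fold and 1.69-fold higher at 6 and 18 h, and the phosphatase gene Dusp1 1.72-fold higher at 6 h. Spred2 was 1.45-fold higher at 6 h. Spry4 was the member below unexposed lungs at 6, 18 and 90 h, with log2 differences of -0.25, -0.43 and -0.52. The 6 h median depended on the setting and was 0.54 with the floor at the 25th percentile or with probe sets averaged, and 0.39 with a pseudocount of 50 units in place of the floor.

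Transcription factors that answer to ERK were the other list with members past 2-fold at 6 h. Of 17 listed, 14 had a probe set. Past 2-fold, and all higher, were 5 of 13 compared at 6 h (median 0.72), 2 of 11 at 18 h (median 0.37) and 1 of 11 at 90 h (median 0.06), beside the same 2.17%, 1.59% and 0.726% of all genes. Egr1 was 2.99-fold, Fos 2.94-fold, Klf6 2.34-fold and Junb 2.24-fold higher at 6 h. At 6 h Jun, Fosb and Fosl2, also AP-1 genes, had log2 differences of 0.21, 0.02 and -0.03, and Etv4 of -0.23. Fosl1, which encodes the AP-1 subunit FRA-1, read 17.3 units in unexposed lungs, 187 at 6 h, 61.2 at 18 h and 24.7 at 90 h, above the floor at 6 h only and at least 2.41-fold higher there. Junb and Egr1 were 2.33-fold and 2.20-fold higher at 18 h, and Fos 2.33-fold at 90 h. Second probe sets of Fos and Egr1 were at the floor in all 4 pools, and that of Junb gave log2 differences of 1.07 and 1.05 at 6 and 18 h. Myc read 6.15, 90.9, 53.8 and 14.3 units, above the floor at 6 h alone and at least 1.17-fold higher there.

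Of 21 listed genes of the cascade between receptor and ERK, 16 had a probe set, and none of the 14, 12 and 13 compared at 6, 18 and 90 h passed 2-fold (medians 0.17, 0.02 and 0.07), a count near the shares over all genes. Shc1, an adaptor that binds the activated receptor, was 1.63-fold higher at 6 h by 1 probe set, and its other gave a log2 difference of 0.49. For Stat3 the log2 difference was 0.32 at 6 h and 0.48 at 18 h by 1 probe set, and 0.46 and 0.57 by the other. Plcg1, a phospholipase, was 1.88-fold lower, outside the central 95% of all compared genes, and Map2k1, the kinase MEK1, 1.60-fold higher at 18 h. Pik3ca was 1.64-fold higher at 90 h, though its other probe set gave 0.06 on the log2 scale.

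**Figure D3:**
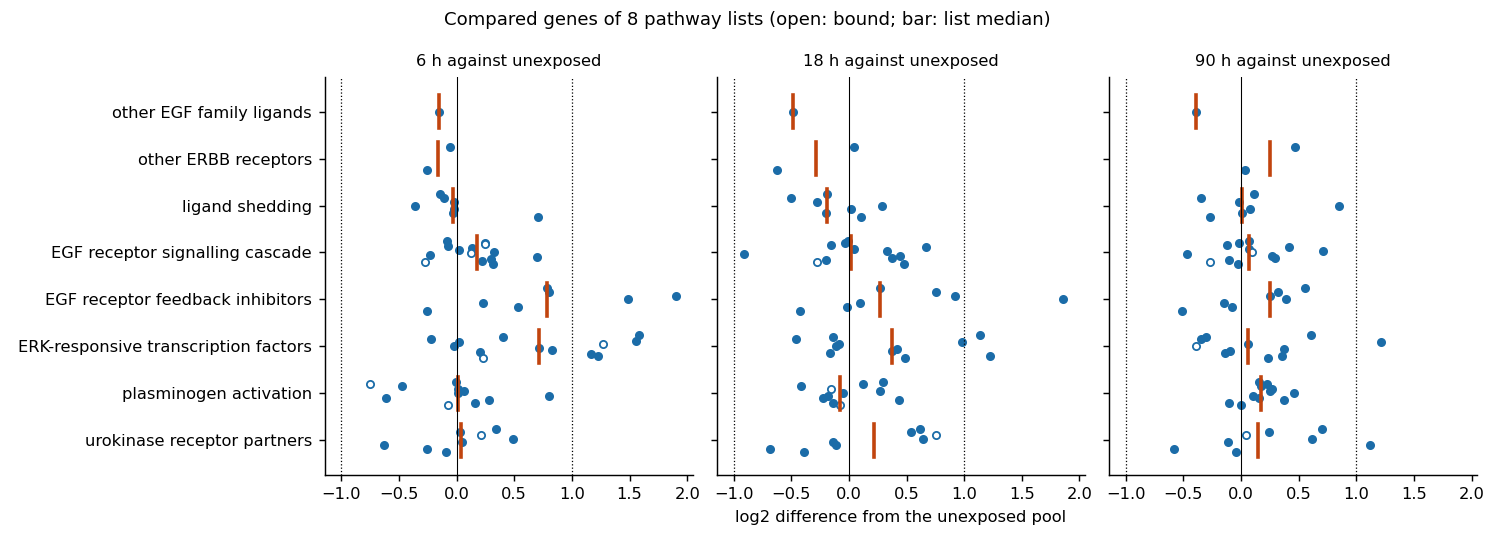
Log2 difference from the unexposed pool (x axis) of each compared gene of 8 lists (y axis) at 6, 18 and 90 h (left to right), 1 point per gene, open where a bound, with a red bar at the list median and dotted lines at 2-fold. The feedback inhibitors and ERK-responsive factors have medians of 0.78 and 0.72 at 6 h, and no gene of the signalling cascade or plasminogen lists passes 2-fold.

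Around urokinase, other genes of plasminogen activation did not pass 2-fold in any comparison with unexposed lungs. Of 17 listed, 14 had a probe set and 11 were compared at each time, with medians of 0.01, -0.08 and 0.17. None past 2-fold is near the shares over all genes. With unscaled intensities the 18 h median was 0.05, so it had no settled direction. Plat, the tissue-type activator of plasminogen, read 476 units in unexposed lungs, 829 at 6 h, 420 at 18 h and 511 at 90 h. It was 1.74-fold higher at 6 h. Plau was at the floor both at that time and in unexposed lungs. F12, a clotting protease gene, was at least 1.69-fold lower at 6 h, and Plgrkt, a plasminogen receptor gene, 1.53-fold lower. S100a10 and Anxa2, which together form a plasminogen receptor, were 1.36-fold and 1.23-fold higher at 18 h, but the second S100a10 probe set gave a log2 difference of -0.48. Mrc2, a collagen receptor that forms a complex with urokinase and its receptor, was 1.37-fold higher at 90 h. Plg and Serpinb2, plasminogen and an inhibitor of urokinase, were at the floor throughout.

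Among partners of the urokinase receptor, 8 of 12 listed genes were compared at each time, and 1 passed 2-fold, at 90 h, where 0.726% of all genes were that much higher. Itgb2, the integrin beta chain of white blood cells, read 297 units in unexposed lungs, 192.4 at 6 h, 276 at 18 h and 644 at 90 h. It was 2.17-fold higher at 90 h and 1.54-fold lower at 6 h, when Plaur was highest. Cd44, the hyaluronan receptor gene, was 1.26-fold, 1.54-fold and 1.62-fold higher at 6, 18 and 90 h. Itga5 was at least 1.68-fold higher at 18 h, and Itgb3 was 1.61-fold lower. Itgav was 1.56-fold higher at 18 h by its brightest probe set, with -0.05 on the log2 scale by another.

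White blood cells also carry the urokinase receptor and make urokinase, so their markers are given beside Plaur and Plau. Of 12 neutrophil markers, all with a probe set and 10 above the floor in some pool, the summed intensity was 2117 units in unexposed lungs, 1872 at 6 h, 1654 at 18 h and 2165 at 90 h. Ly6g and Mmp8 were at the floor in all 4 pools, and Ltf, the lactoferrin gene, was 2.93-fold lower at 6 h. S100a8 and S100a9 were 1.83-fold and 1.77-fold higher at 90 h, when 4 of 9 compared neutrophil markers were above unexposed lungs. Cxcr2, a chemokine receptor of neutrophils, read 27.5, 150.9, 29.4 and 44.1 units and was above the floor at 6 h alone, at least 1.94-fold higher there. Of 11 macrophage markers 8 had a probe set and 6 were above the floor in some pool, with sums of 3983, 3200, 3182 and 4907 units. Msr1 and Marco were at the floor throughout, and Chil3 and Mrc1 were 2.16-fold and 2.04-fold higher at 90 h. The bright markers set most of each sum. Sums for alveolar type II cells were 16660, 16120, 17100 and 16300 units over 4 of 7 markers, 3 of them above the floor, with Sftpd at the floor. Those for club cells were 14630, 12030, 10870 and 11100 units over 3 of 4, with Cckar 2.47-fold and 2.24-fold lower at 6 and 18 h. In whole lung, fewer cells of a type and less RNA per cell cannot be told apart, and the part of cell makeup in the members' levels was not tested.

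To place each course, the genes nearest to it were found by the root mean square gap between their 3 log2 differences from unexposed lungs, over genes above the floor in all 4 pools. For Hbegf, among 5082 others, these were Ctps, a CTP synthase gene (gap 0.07), Krt18, a keratin of simple epithelia (0.09), and Tmem37 (0.12). Krt18 read 206 units in unexposed lungs, 540 at 6 h, 529 at 18 h and 258 at 90 h. For Plaur, among 5083, they were Tinagl1 (0.14), Errfi1 (0.15) and Plxna2, a semaphorin receptor gene (0.24). Errfi1 had log2 differences of 1.91, 0.92 and 0.25, against 1.82, 0.93 and 0 for Plaur. The 6 and 18 h values of Plaur are bounds, and for its 90 h value both arrays were at the floor. The gaps for Plaur thus rest on the floor chosen. For Plau they were Nudt16l1 (0.04), Polr2f, a subunit of RNA polymerases (0.05), and Sfpq, a splicing factor gene (0.06), but no value of the Plau course was measured on both arrays, so these gaps rest on the floor chosen. For Egfr, by its brightest probe set, they were Aak1 (0.02), Clpb (0.03) and Rac3 (0.04). Near courses over 4 arrays are a description only.

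**Figure D4:**
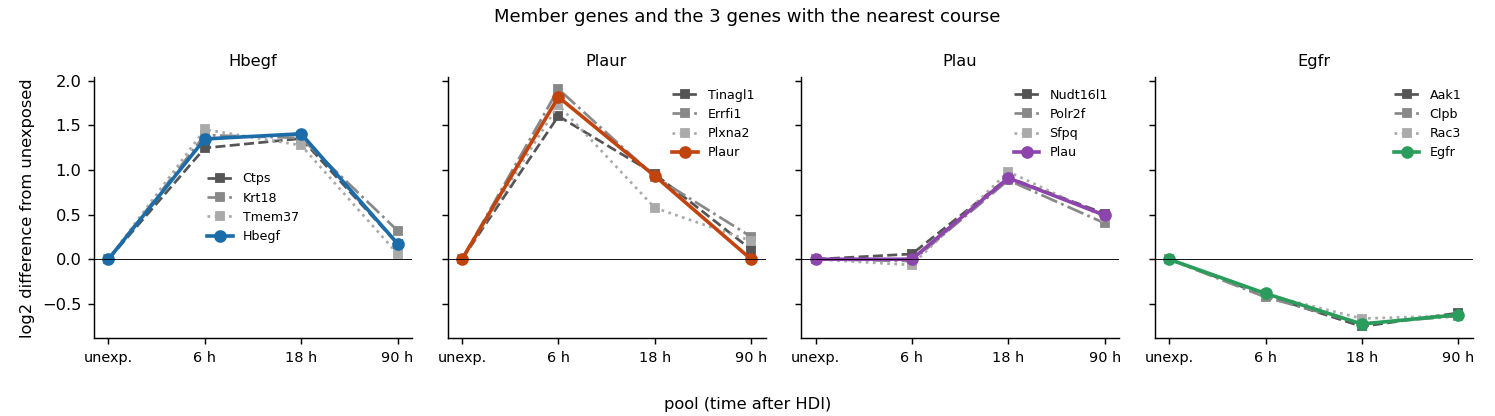
Log2 difference from the unexposed pool (y axis) at 6, 18 and 90 h (x axis, as categories) for Hbegf, Plaur, Plau and Egfr (coloured) and for the 3 genes nearest to each (grey). Values of Plaur and Plau at the floor are drawn at the floor. The nearest courses lie within a root mean square gap of 0.12 for Hbegf, 0.24 for Plaur, 0.06 for Plau and 0.04 for Egfr.

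The members differed in how firmly their values stood. Over up to 9 processing settings the log2 difference of Hbegf ranged from 1.17 to 1.46 at 6 h, from 1.23 to 1.55 at 18 h and from 0.14 to 0.32 at 90 h. That of Plaur ranged from 0.99 to 2.02 at 6 h and from 0.11 to 1.14 at 18 h, and that of Plau from 0.08 to 1.15 at 18 h. Bounds move with the floor by construction. Egfr ranged from -0.39 to 0.17 at 6 h and from -0.72 to -0.02 at 18 h, and at 18 and 90 h its remaining probe sets without a suffix were at the floor. As a yardstick, 2 probe sets of the same gene disagreed with a robust SD of 0.28 log2 units per probe set at 6 and 18 h (291 and 286 genes) and 0.25 at 90 h (284 genes), which leaves out differences between animals, pools and hybridisations.

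**Figure D5:**
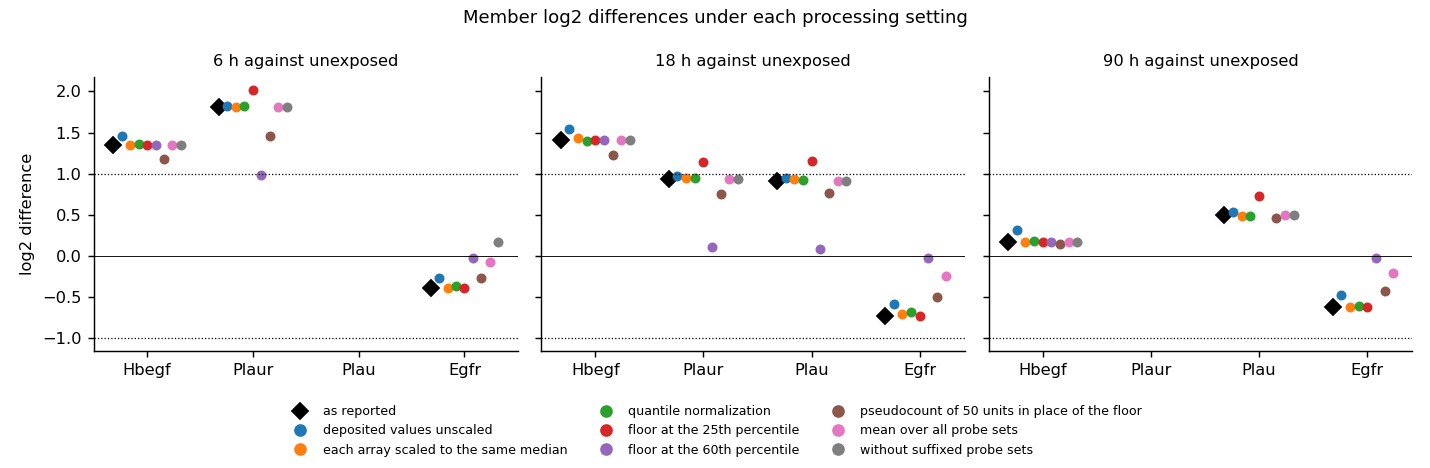
Log2 difference from the unexposed pool (y axis) of Hbegf, Plaur, Plau and Egfr (x axis) at 6, 18 and 90 h (left to right) under each processing setting, 1 point per setting, the reported one as a black diamond, with dotted lines at 2-fold. Hbegf stays between 1.17 and 1.55 at 6 and 18 h, Plaur and Plau drop to 0.11 and 0.08 at 18 h under the higher floor, and Egfr reaches 0.17 at 6 h without suffixed probe sets.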

How the data were processed

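The values deposited by the authors are linear intensities, 1 for each probe set on each array, with exact zeros but none below 0. How the authors corrected and scaled these intensities, and with which software, is not given in the labels. Of 12488 probe sets 66 were controls and stayed out, and 10833 of the rest had 1 gene symbol in the platform annotation, 396 several and 1193 none. Each array was scaled to the mean of the 4 trimmed means (2% trimmed at each end, factors 0.970 to 1.07), values under the 40th percentile were set to it, and log2 was taken. Calculations used Python 3.11.15 with numpy 2.4.6 and pandas 2.3.3, and the code was tested on simulated data.

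With 1 array per group no test was made. Genes were counted past 2-fold in 5 comparisons, beside all compared genes. Named were all members, up to 4 genes per list and time with the largest differences, list genes past 2-fold and the 3 nearest courses. Others, given by level or by log2 difference, were added after their values were seen. The members and lists were chosen with earlier results of these data known. Alternatives were 3 other scalings, 2 other floors, a pseudocount of 50 units, averaging or leaving out probe sets (suffix f, g, r or s), and thresholds of 1.5-fold and 3-fold.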

Additional observations from a re-analysis of the deposited data

How the results depend on the processing

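Of 100 recomputed counts of members past 2-fold, 87 stayed within 1.5 times the reported count, where most reported counts were 0. None of 138 recomputed log2 differences of members reversed a difference past 2-fold. Only a reported difference past 2-fold could count as reversed, which leaves out most members and comparisons. Egfr at 6 h changed sign, from -0.38 to 0.17 without suffixed probe sets, and was not counted as reversed. Higher members at 6 h numbered 1 in place of 2 both at a threshold of 3-fold and under a floor at the 60th percentile. Higher members at 18 h numbered 3 in place of 1 with the floor at the 25th percentile or a 1.5-fold threshold, and 0 at 3-fold. With a 1.5-fold threshold 1 member was lower at 18 h and 1 at 90 h against unexposed lungs, and 1 was higher and 1 lower from 6 to 18 h. With the floor at the 25th percentile 1 was higher from 6 to 18 h. From 18 to 90 h, 2 were lower with that floor or a 1.5-fold threshold, and 0 at 3-fold. Without scaling, the median log2 difference of all genes was 0.07, 0.12 and 0.16 at 6, 18 and 90 h, and the share of higher genes among those past 2-fold was 69.0%, 81.6% and 61.2% in place of 59.0%, 62.7% and 44.0%. Of 319 recomputed list medians, 57 moved by 0.1 or more. Signal near background limits Egfr, Plau, Ereg and the unexposed and 90 h values of Plaur.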
